A study of Mus musculus with 11 samples.

Results

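The circadian clock genes Nr1d1, Nr1d2, Dbp, Per1, Per2, Per3, Arntl, Clock, Nfil3 and Bhlhe41 were followed by RNA sequencing in tumour-bearing mouse liver. They were taken by symbol from a table of 43346 genes; each of the 10 matched 1 row, and all 10 passed the filter on low counts. All 11 libraries came from liver of FVB/NJ mice with hepatocellular carcinoma induced by β-catenin, through which Wnt signals act, together with the growth factor receptor MET. Mice of 6 libraries were labelled responders to anti-PD-1, which blocks a receptor that restrains T cells, and those of 4 were labelled non-responders; these 10 are called the treated libraries. For 1 more library the response label gives no treatment although its treatment label names anti-PD-1, and it is called untreated here after the response label. The design text describes a synthetic transgenic model, and the labels do not give the promoter, the cells that express MET and β-catenin, the age or sex of the mice, or the time of day at which livers were taken. Nor do they say whether the libraries of a label came from separate mice, so p-values speak only of spread among libraries, which may be technical.

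Gene counts summed to between 17876515 and 49884800 per library. The hepatocyte genes of a marker list (7 of 8 in the table, none at 0) summed to 69939 to 81587 CPM (counts scaled to a common library size by TMM, the trimmed mean of M values) in responders, 96494 to 122374 CPM in non-responders and 70405 CPM in the untreated one, so responders lay below all non-responders. Of the 7, Apoa1 passed the test, as lower in responders, while 4 had a fold change above 0 (median log2 fold change 0.03). The lower sum thus did not hold gene by gene. Summed markers of macrophages, T and natural killer cells, B cells, endothelial cells and stellate cells overlapped between the labels, and those of cholangiocytes (17.8 to 25.9 CPM against 25.7 to 69.8) and erythroid cells (82.9 to 189 against 144.7 to 293) overlapped in part. Of these other lists, 2 of 8 T and natural killer cell genes were lower in responders (Trac, at 0.297 against 0.875 CPM on average, and Klrb1c, at 0.285 against 2.55), with 7 of 8 fold changes below 0. Of 6 endothelial genes, Lyve1 was lower (3.82 against 10.2 CPM), while 4 of the 6 had fold changes above 0 (median log2 fold change 0.22). Of 5 erythroid genes, Hbb-bt (12.6 against 28.8 CPM) and Hba-a2 (6.80 against 17.9 CPM) were lower, each with a near-identical copy. No gene passed as higher in any marker list, and none passed among those of macrophages, B cells, stellate cells or cholangiocytes. The part of cell makeup in the values below was not tested, and in bulk tissue fewer cells of a type and less RNA per cell cannot be told apart. Coverage in non-responder replicate 1 was shifted to later exons, with a log2 ratio of later to earlier exons of 1.21 relative to the median library, against -0.07 to 0.12 in the other 10.

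The clock is a loop of transcription factors that runs in nearly every cell, liver included. CLOCK pairs with BMAL1, the product of Arntl, and the pair binds E-boxes and activates the Per genes, Nr1d1, Nr1d2, Dbp and Bhlhe41. PER proteins inhibit that pair, BHLHE41 competes with it at E-boxes, and the nuclear receptors REV-ERBα and REV-ERBβ (Nr1d1 and Nr1d2) repress Arntl, Clock and Nfil3 through ROR elements. DBP activates and NFIL3 represses through the same D-boxes. In mouse liver, transcripts of Arntl, Clock and Nfil3 peak at a time of day roughly opposite to those of Nr1d1 and Dbp, with the Per genes following Dbp, so the mix of these transcripts in a sample depends on when it was taken.

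E-boxes and D-boxes could be read in the start-site regions of several members. RefSeq promoter entries (GRCm38.p6) existed for 9 of the 10, all but Per2, and the 250 bases before each listed start were searched on both strands. The E-box CACGTG lay before Per1 and Bhlhe41, against 6.86% of 27025 genes with an entry. The D-box, searched as TTATGTAA or TTACGTAA, lay 2 times before Per3, against 1.10% of genes with at least 1. The related letters CACGTT occurred before Nr1d1 (4.50% of genes), and the ROR element consensus before none of the 9 (0.396% of genes). Its half-site AGGTCA, which many nuclear receptors bind and which the full consensus can contain, lay before 4 of the 9, Clock, Nfil3, Nr1d2 and Per1, against 15.8% of genes. The stretches that hold the boxes of Per3, Per1 and Bhlhe41 are printed because the Per3 and Per1 transcripts carry the pair relations described further on and Bhlhe41 the widest log2 difference between labels; capitals mark the D-box or E-box.
Per3, chr4:151044796-151044915, minus strand: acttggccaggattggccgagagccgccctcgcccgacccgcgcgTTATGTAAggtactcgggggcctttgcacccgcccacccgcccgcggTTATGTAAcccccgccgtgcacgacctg
Per1, chr11:69098749-69098828, plus strand: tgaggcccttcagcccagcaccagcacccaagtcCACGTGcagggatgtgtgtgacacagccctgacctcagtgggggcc
Bhlhe41, chr6:145865561-145865620, minus strand: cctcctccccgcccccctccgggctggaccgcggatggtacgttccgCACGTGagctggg
Relative to the listed start, the boxes begin at -205 and -158 in Per3, at -166 in Per1 and at -153 in Bhlhe41. The listed starts of Per1 and Bhlhe41 lie inside the annotated spans of these genes. The box of Bhlhe41 is therefore closer to the annotated start of the gene than to the listed one. These matches describe letters in the reference and no binding was measured.

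Per length of gene model, the REV-ERBα gene and Dbp were the most abundant members and Arntl and Bhlhe41 the least. On the authors' RPKM scale, which corrects counts for gene length and depth, responders had a level of 35.0 ± 3.39 for Nr1d1 and 30.2 ± 5.12 for Dbp (SD, n = 6), and these neighbours overlapped. Nr1d2 followed at a level of 16.8 ± 2.02 RPKM, overlapping neither Dbp nor the genes below it. Nfil3 (6.14 ± 0.436), Clock (5.71 ± 0.700), Per2 (5.20 ± 2.47) and Per3 (4.62 ± 1.17) had RPKM levels that overlapped one another, and Per1 followed at 2.26 ± 0.798. Bhlhe41 at 0.970 ± 0.228 RPKM and Arntl at 0.802 ± 0.244 RPKM did not differ beyond their spread. In non-responders the same 3 genes stood at the top, with Dbp at 21.6 ± 11.6, Nr1d1 at 21.1 ± 6.03 and Nr1d2 at 15.5 ± 5.20 RPKM (SD, n = 4), but all 3 overlapped. The SD of the RPKM level was wider in non-responders for every member but Bhlhe41 (0.302 ± 0.221 RPKM).

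**Figure D1:**
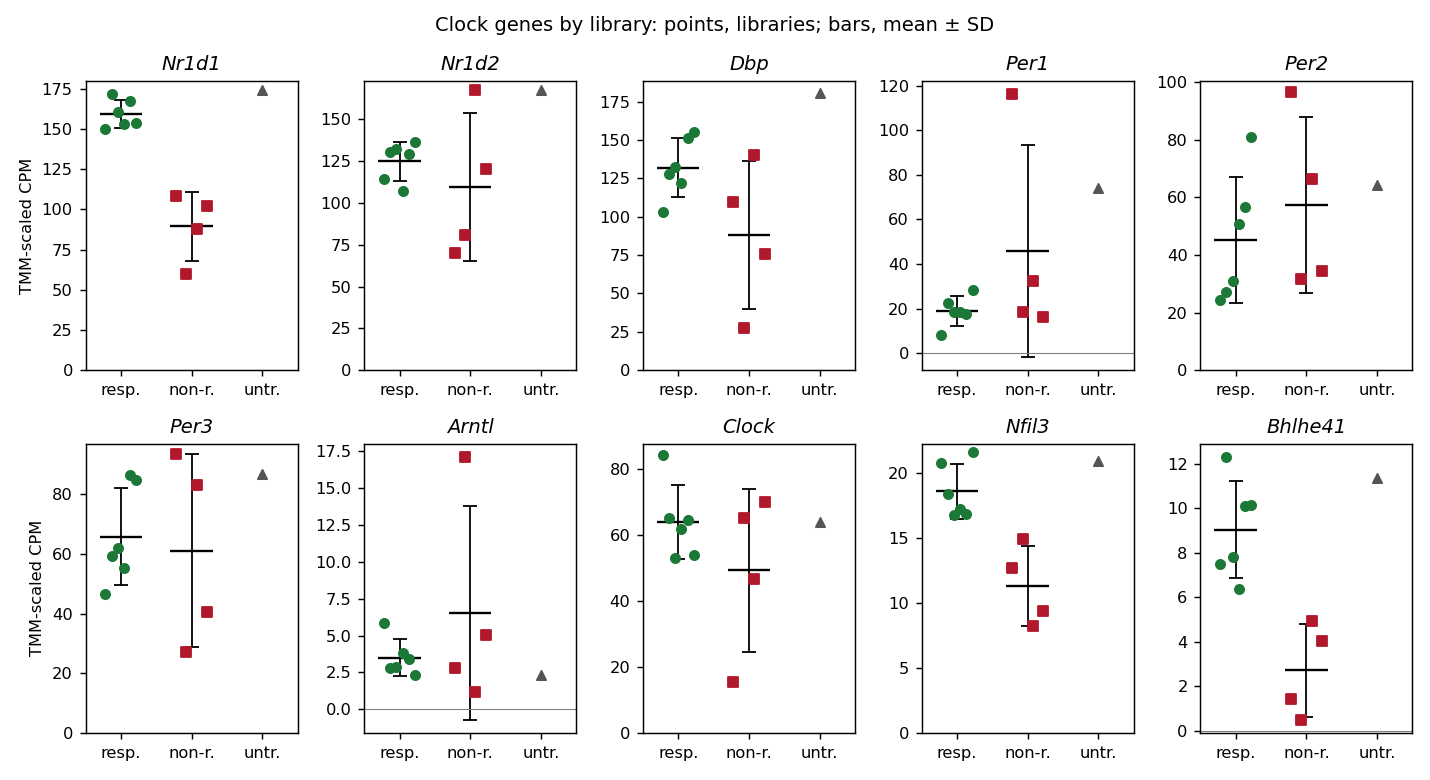
TMM-scaled CPM (y axis) of the 10 clock genes in each library, by label (x axis: responder, n = 6; non-responder, n = 4; untreated, n = 1); points are libraries, and black bars give the mean ± SD, and a bar that runs below 0 reflects the SD alone. Responders lie above every non-responder for Nr1d1, Nfil3 and Bhlhe41, and non-responder points are the more scattered, with Per1 reaching 116 CPM and Arntl 17.1 CPM in 1 library each.

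The comparison of responders with non-responders asks which clock transcripts went with the response label. Nr1d1 and Nfil3 were higher in responders, and the other 8 members did not pass. This was 2 of 10 members, both higher, where 9.93% of 17610 genes passed in either direction, 4.11% as higher and 5.82% as lower (edgeR's quasi-likelihood test, Benjamini-Hochberg adjusted p under 0.05). The groups did not overlap for 3 members, Nr1d1, Nfil3 and Bhlhe41, all with higher values in responders, where 6.16% of genes tested had that pattern and 5.37% the reverse (11.5% in all). The median log2 fold change of the 10 members was 0.27, and that of all genes tested was -0.02. Of the 10 members 4 had an unadjusted p under 0.05, against 27.3% of genes.

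Nr1d1 (ENSMUSG00000020889, mm10 chromosome 11, 98767932 to 98775333, minus strand) encodes REV-ERBα, the repressor of Arntl. Responders had 150.1, 172, 161, 153, 167 and 154 CPM in replicates 1 to 6, and non-responders 108, 59.9, 88.1 and 102 CPM in replicates 1 to 4. Every responder was above every non-responder, and the lowest value was that of non-responder replicate 2. The means were 159.6 ± 8.70 CPM (SD, n = 6) and 89.6 ± 21.5 CPM (SD, n = 4). On the log2 scale the fold change was 0.81 ± 0.16 (SE; edgeR's quasi-likelihood test, adjusted p = 0.0187), and leaving out any 1 library kept it past the threshold (highest adjusted p 0.0492, without non-responder replicate 2). With the number in the sample titles as a covariate the log2 fold change was 0.77 and the adjusted p 0.432; that number ran from 1 to 29 in responders and from 26 to 37 in non-responders, and what it stands for is not given. In the gene annotation 263 of the 3077 exon bases of Nr1d1 are shared with Thra on the other strand, and over the remaining exons the log2 fold change was 0.90 (adjusted p = 0.0148).

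Nfil3 (ENSMUSG00000056749, chromosome 13, 52967209 to 52981073, minus strand) encodes the D-box repressor, whose gene is itself repressed by REV-ERBα. Responders had 20.7, 18.4, 16.8, 17.2, 16.8 and 21.6 CPM, and non-responders 12.7, 14.9, 8.24 and 9.35 CPM. The groups did not overlap, and non-responder replicate 2, lowest for Nr1d1, was the highest non-responder here. Means were 18.6 ± 2.09 CPM (SD, n = 6) and 11.3 ± 3.05 CPM (SD, n = 4). The log2 fold change of Nfil3 was 0.69 ± 0.17 (SE; edgeR adjusted p = 0.0325). The call was lost in 6 of the 10 fits that left out 1 library, those without responder replicate 1, 2 or 5 or non-responder replicate 2, 3 or 4 (adjusted p from 0.0516 to 0.0689, log2 fold changes from 0.57 to 0.86), and with the title number as a covariate (0.64, adjusted p = 0.452). Of all genes, 1748 passed in the main fit, and 425, 324 and 309 without responder replicates 1, 2 and 5. Without non-responder replicates 2, 3 and 4 these were 79, 1994 and 1595. Nfil3 stood at 0.86 without non-responder replicate 2, and at 1.07 (edgeR adjusted p = 0.0255) with non-responder replicates 1 and 2 both left out. Nr1d1 and Nfil3 were thus both higher in responders. The part of the hour of sampling, which is not given, was not tested.

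Bhlhe41 (ENSMUSG00000030256, chromosome 6, 145858243 to 145865558, minus strand), the E-box repressor also called DEC2, had the widest log2 difference of the 10 members and missed the threshold. Responders had 7.48, 12.3, 7.83, 6.39, 10.1 and 10.2 CPM, and non-responders 1.40, 0.489, 4.94 and 4.01 CPM. The groups did not overlap, and non-responder replicates 1 and 2, with 40 and 18 reads, lay under the other 2 non-responders. Means were 9.05 ± 2.20 CPM (SD, n = 6) and 2.71 ± 2.11 CPM (SD, n = 4). Its log2 fold change came to 1.72 ± 0.50 (SE; edgeR adjusted p = 0.0501). It passed without non-responder replicate 3 (2.17, adjusted p = 0.0297) and by DESeq2 (adjusted p = 0.00324) and limma-voom (0.0221), and was 1.01 (adjusted p = 0.0835) with non-responder replicates 1 and 2 both left out.

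Nr1d2 (ENSMUSG00000021775, chromosome 14, 18204054 to 18239127, minus strand), which encodes REV-ERBβ, the paralog of REV-ERBα, did not pass the test. Responders had 115, 130.3, 132, 107, 129 and 137 CPM, and non-responders 69.9, 80.7, 167 and 120.4 CPM. Non-responder replicate 3 was above all responders and replicates 1 and 2 were below all of them. Between labels the log2 fold change was 0.17 ± 0.21 (SE; edgeR adjusted p = 0.629), with values from 0.02 without non-responder replicate 1 to 0.45 (adjusted p = 0.105) without replicate 3, and -0.21 (adjusted p = 0.431) with non-responder replicates 1 and 2 left out. Dbp (ENSMUSG00000059824, chromosome 7, 45705088 to 45710155, plus strand), the D-box activator, had 103, 128, 132, 122, 151 and 155 CPM in responders and 109.6, 27.7, 139.9 and 75.6 CPM in non-responders. The labels overlapped in part, with non-responder replicates 2 and 4 below every responder. The log2 fold change of Dbp was 0.56 ± 0.34 (SE; edgeR adjusted p = 0.320), with 0.27 (adjusted p = 0.450) without non-responder replicate 2 and 0.86 (adjusted p = 0.133) without replicate 3. Of its 2945 exon bases, 491 are shared with Sphk2 on the other strand; over the rest the log2 fold change was 0.66 (adjusted p = 0.244).

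None of the 3 Per genes, whose proteins inhibit CLOCK and BMAL1, passed the test. Per1 (ENSMUSG00000020893, chromosome 11, 69095217 to 69109960, plus strand), which is also induced by glucocorticoids and cyclic AMP, had 7.998, 22.5, 18.4, 18.4, 17.3 and 28.2 CPM in responders and 116, 18.3, 32.4 and 16.1 CPM in non-responders. Non-responder replicate 1 stood far above the other 9 treated libraries. The log2 fold change was -1.33 ± 0.55 (SE; edgeR adjusted p = 0.145), and -0.24 (adjusted p = 0.689) without that library. Per2 (ENSMUSG00000055866, chromosome 1, 91415982 to 91459324, minus strand) had 24.4, 27.2, 31.0, 50.9, 56.6 and 81.0 CPM in responders and 96.7, 31.6, 66.3 and 34.4 CPM in non-responders. The labels overlapped over most of the range, and the log2 fold change was -0.37 ± 0.41 (SE; edgeR adjusted p = 0.598), or 0.03 (0.967) without non-responder replicate 1 and -0.62 (0.318) without responder replicate 6. Per3 (ENSMUSG00000028957, chromosome 4, 151003652 to 151044665, minus strand) had 46.6, 59.2, 61.9, 55.4, 86.7 and 84.7 CPM in responders and 93.7, 27.1, 83.1 and 40.5 CPM in non-responders. Its fold change on the log2 scale was 0.07 ± 0.33 (SE; edgeR adjusted p = 0.910), with non-responder replicate 1 above every responder and replicates 2 and 4 below them all.

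The activators Arntl and Clock did not pass either. Arntl (ENSMUSG00000055116, chromosome 7, 113207465 to 113314122, plus strand), which encodes BMAL1, had 5.84, 2.83, 2.84, 3.81, 3.38 and 2.31 CPM in responders and 2.77, 17.1, 1.16 and 5.07 CPM in non-responders. Non-responder replicate 2 had the highest value of all libraries and replicate 3 the lowest, a 14.8-fold range from 629 against 45 reads. For Arntl the log2 fold change was -0.92 ± 0.58 (SE; edgeR adjusted p = 0.338), and 0.20 (adjusted p = 0.809) without non-responder replicate 2. Clock (ENSMUSG00000029238, chromosome 5, 76212177 to 76304548, minus strand) had 84.3, 65.3, 53.1, 62.0, 64.7 and 54.1 CPM in responders and 15.5, 65.3, 46.6 and 69.9 CPM in non-responders. Non-responder replicate 1 was the lowest library, and the log2 fold change was 0.37 ± 0.32 (SE; edgeR adjusted p = 0.497), or 0.08 (0.809) without it and 0.58 (0.310) without non-responder replicate 4. In that library, the one with reads toward 3′ ends, 78.4% of the exon reads of Clock lay in its last exon (95% Wilson interval 74.4 to 81.9), against 52.7% to 58.5% in the other 10. The last exon also took 22.9% of Per1 reads there (10.7% to 18.2% elsewhere), 38.9% of Per2 reads (27.6% to 35.6%) and 50.8% of Per3 reads (33.6% to 39.2%). The shift was also present in Nr1d1 (25.8% against 11.3% to 13.2%), Dbp (40.1% against 26.2% to 29.9%) and Nr1d2 (71.3% against 50.1% to 57.4%). The last exons of Nr1d1 and Dbp are those that overlap another gene. Arntl and Nfil3 were barely above the other libraries, and Bhlhe41 lay inside their range (76.7% against 64.1% to 84.2%). The part of this coverage in the levels was not tested.

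**Figure D2:**
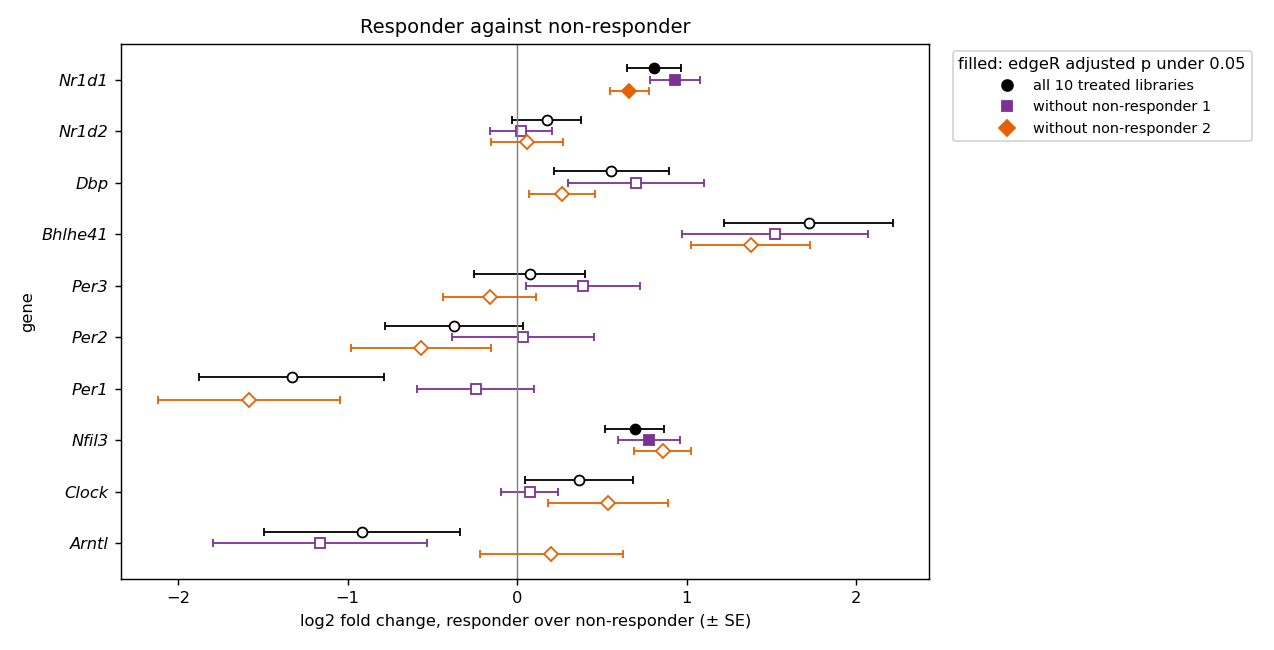
Log2 fold change of each member, responder minus non-responder (x axis; points, with bars giving ± SE from edgeR; y axis, gene) over all 10 treated libraries (circles), without non-responder replicate 1 (squares) and without non-responder replicate 2 (diamonds), filled where the adjusted p was under 0.05. Nr1d1, Nr1d2, Dbp, Clock, Nfil3 and Bhlhe41 stay above 0 in all 3 fits, and Per1 stays below it. Per2 and Per3 cross 0 in 1 of the fits each, and Arntl moves from -0.92 to 0.20 without replicate 2.

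Within a label, most members varied more than the typical gene. The pooled within-label SD of log2 CPM had a median of 0.327 over the 17610 genes tested. Arntl (SD 1.05), Bhlhe41 (0.943) and Per1 (0.932) lay at the 96.3, 94.7 and 94.4 percentiles of that SD, and Per2 (0.718), Dbp (0.653), Clock (0.644) and Per3 (0.591) between the 81.0 and 88.3 percentiles. Nr1d2 (0.366) was at the 56.6 percentile, and Nfil3 (0.270) and Nr1d1 (0.243) at 38.1 and 31.9. The members that passed the test between labels were the 2 with the smallest spread. That test weighs a difference against the spread within labels, so a small spread by itself favours a call. Single libraries carried much of this spread for some members. Without non-responder replicate 2 the SD was 0.30 for Dbp, 0.59 for Bhlhe41, 0.68 for Arntl and 0.10 for Nr1d1. Without non-responder replicate 1 it was 0.26 for Clock and 0.59 for Per1. Dbp then fell to the 45.7 percentile and Clock to the 51.5. With any 1 library left out, Arntl, Bhlhe41, Per1, Per2 and Per3 stayed higher, the lowest being 69.3 for Per3. The highest and lowest library differed 25.2-fold for Bhlhe41, 14.8-fold for Arntl and 14.5-fold for Per1, but 2.91-fold for Nr1d1, 2.62-fold for Nfil3 and 2.40-fold for Nr1d2.

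Which library was highest or lowest depended on the member. Non-responder replicate 1 was highest of the 10 treated libraries for Per1, Per2 and Per3 (24.9% of genes tested) and lowest for Nr1d2 and Clock (31.3% of genes). It was thus an extreme for 5 of 10 members and for 56.2% of all genes, and its share of members is near that background. Non-responder replicate 2 was highest for Arntl and lowest for Nr1d1, Dbp, Per3 and Bhlhe41, also 5 of 10, where it was an extreme for 26.8% of genes. Non-responder replicate 3 was highest for Nr1d2 and lowest for Arntl and Nfil3, 3 of 10 where it was an extreme for 12.4% of genes. Responder replicate 1 was highest for Clock and lowest for Per1 and Per2, 3 of 10 where it was an extreme for 23.9% of genes, which is near that share. Libraries of 1 label thus stood at opposite ends for the same gene, as non-responder replicates 2 and 3 did for Arntl.

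**Figure D3:**
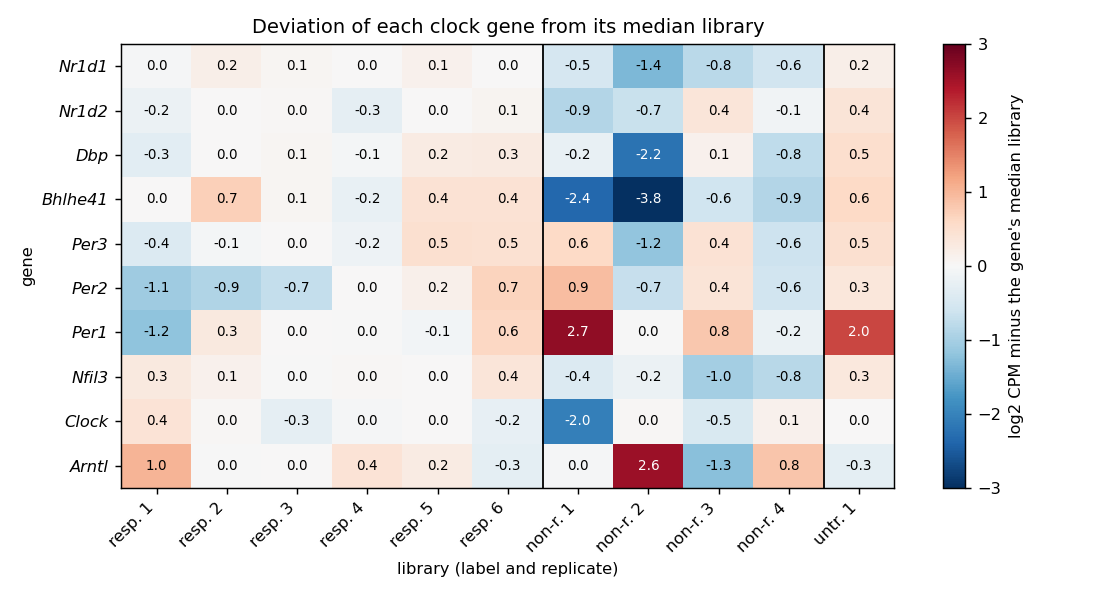
Deviation of each member (rows) from its median over the 11 libraries, in log2 CPM (colour), in each library (columns, by label and replicate: responder, non-responder, untreated); the number in a cell is that deviation, and colours end at ±3. Non-responder replicate 2 is low in Dbp, Per3 and Bhlhe41 and high in Arntl, and non-responder replicate 1 is high in Per1 and low in Clock and Bhlhe41.

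Because the hour of sampling is not given, phase was described only as the relation between members within the labels, with each label's mean removed from log2 CPM. Of 45 pairs, 24 had a positive Pearson r and 21 a negative one, and 3 had an adjusted p under 0.05 (two-sided exact permutation within labels over 17280 orders, Benjamini-Hochberg over the 45 pairs). Dbp and Arntl opposed each other with r = -0.960 (exact permutation p = 0.0015, adjusted p = 0.0339) and Spearman's rho -0.891 (exact permutation p = 0.00457, adjusted p = 0.0514). Without the 2 libraries farthest from the median of Dbp, non-responder replicates 2 and 4, r was -0.862, and over the 6 responders alone it was -0.834. Taken as the log2 level of Dbp minus that of Arntl against the median library, non-responder replicate 2 stood at -4.77, replicate 4 at -1.58 and replicate 3 at 1.38, with responders from -1.34 to 0.57.

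Dbp and Per3 varied in parallel across libraries, with r = 0.903 (exact permutation p = 0.000868, adjusted p = 0.0339) and rho 0.939 (exact permutation p = 0.000694, adjusted p = 0.0313). This was the only pair past the threshold by rho. Without the 2 farthest libraries r was 0.787, and in the responders alone it was 0.975. The stretch of Per3 printed above, chosen because of this relation, holds D-boxes, the element that DBP binds. Per2 had no promoter entry to search, and whether DBP acts on Per3 in these livers was not tested. Per1 and Clock opposed each other with r = -0.943 (exact permutation p = 0.00318, adjusted p = 0.0477) and rho -0.842 (exact permutation p = 0.00752, adjusted p = 0.0677). Without non-responder replicate 1 and responder replicate 1, the 2 farthest in Per1, r was -0.784, and in the responders alone -0.848. The coverage of non-responder replicate 1 described above touches both genes of that pair.

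These 3 coefficients kept their size when any 1 library was left out, with r from 0.886 to 0.944 for Dbp and Per3, from -0.968 to -0.926 for Dbp and Arntl and from -0.966 to -0.880 for Per1 and Clock. The adjusted p did not: leaving out 1 library gave between 0 and 4 pairs past the threshold, with 0 for 7 of the 10 libraries, and fewer libraries leave fewer orders to permute. With non-responder replicates 1 and 2 both left out r was 0.976, -0.941 and -0.878 in the same order and 0 pairs passed. Among the responders alone 0 of 45 pairs passed after adjustment and 6 had an unadjusted p under 0.05 (exact permutation). Because 6 libraries give few orders, 1 pair by itself could not have passed that adjustment, whatever its r. The relation of Nr1d1 with Dbp, both direct targets of CLOCK and BMAL1, did not pass, with r = 0.786 (exact permutation p = 0.155, adjusted p = 0.414) and rho 0.552 (exact permutation p = 0.178, adjusted p = 0.501). Its r turned to -0.23 when non-responder replicate 2 was left out. Nr1d1 and Nfil3, both higher in responders, had a relation within labels that did not pass either, with r = -0.500 (exact permutation p = 0.458, adjusted p = 0.655) and rho -0.370 (exact permutation p = 0.418, adjusted p = 0.627). That r, too, changed sign when non-responder replicate 2 was left out.

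**Figure D4:**
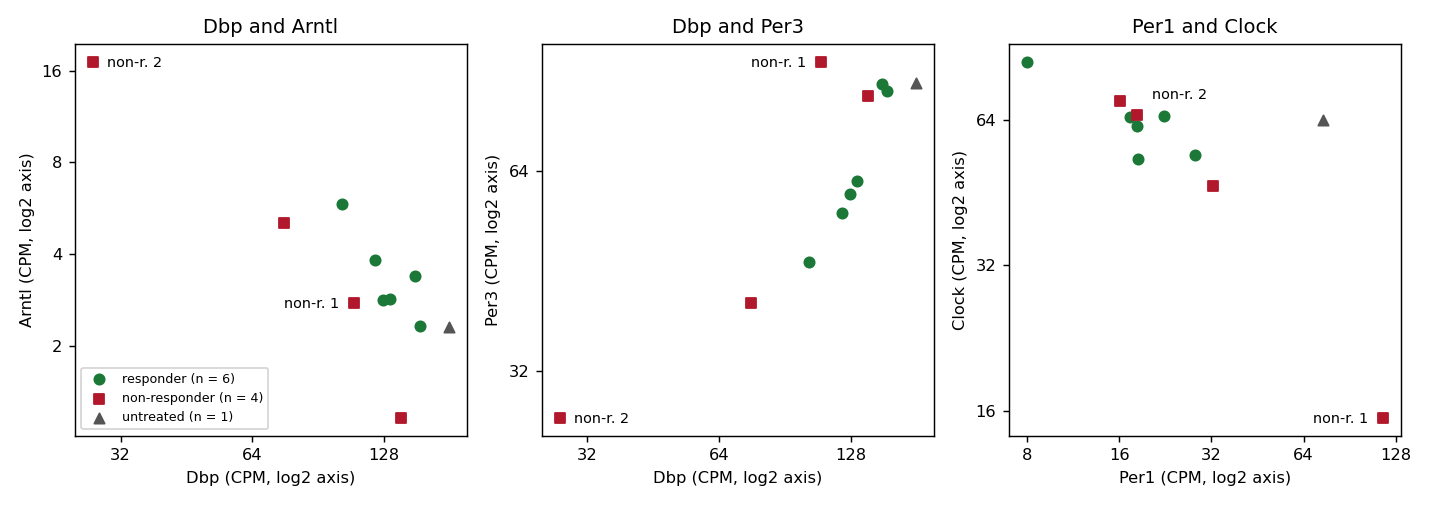
CPM of 2 members against each other (log2 axes) in the 6 responder (circles), 4 non-responder (squares) and 1 untreated (triangle) libraries, for Dbp and Arntl, Dbp and Per3, and Per1 and Clock. Arntl is lower and Per3 higher where Dbp is higher, responders span a narrower range than non-responders, and the untreated library lies off the trend of Per1 and Clock, at 73.9 and 63.9 CPM.

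The members were placed in opposing arms by their known phase. The 7 targets of CLOCK and BMAL1 (Nr1d1, Nr1d2, Dbp, Per1, Per2, Per3 and Bhlhe41) formed the first arm, and Arntl, Clock and Nfil3 the second. Within the first arm 19 of 21 pairs had a positive r (median 0.556), and across arms 18 of 21 had a negative r (median -0.594). In the second arm 2 of 3 pairs were positive. The responders alone gave 20 of 21, 18 of 21 and 3 of 3, and 35 of the 45 pairs had the same sign there as over all treated libraries, which include them. Without non-responder replicate 1 all pairs had the sign of their arms, 21 of 21, 21 of 21 and 3 of 3. Without non-responder replicate 2 alone, 11 of 21 pairs within the first arm were positive (median 0.07) and 14 of 21 across arms were negative. Without both non-responder replicates 1 and 2 the counts were 16 of 21 (median 0.553) and 18 of 21, so the low count within the first arm appeared where replicate 1 was kept and replicate 2 was not. Pairs share genes and libraries, and no test was made on these counts.

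**Figure D5:**
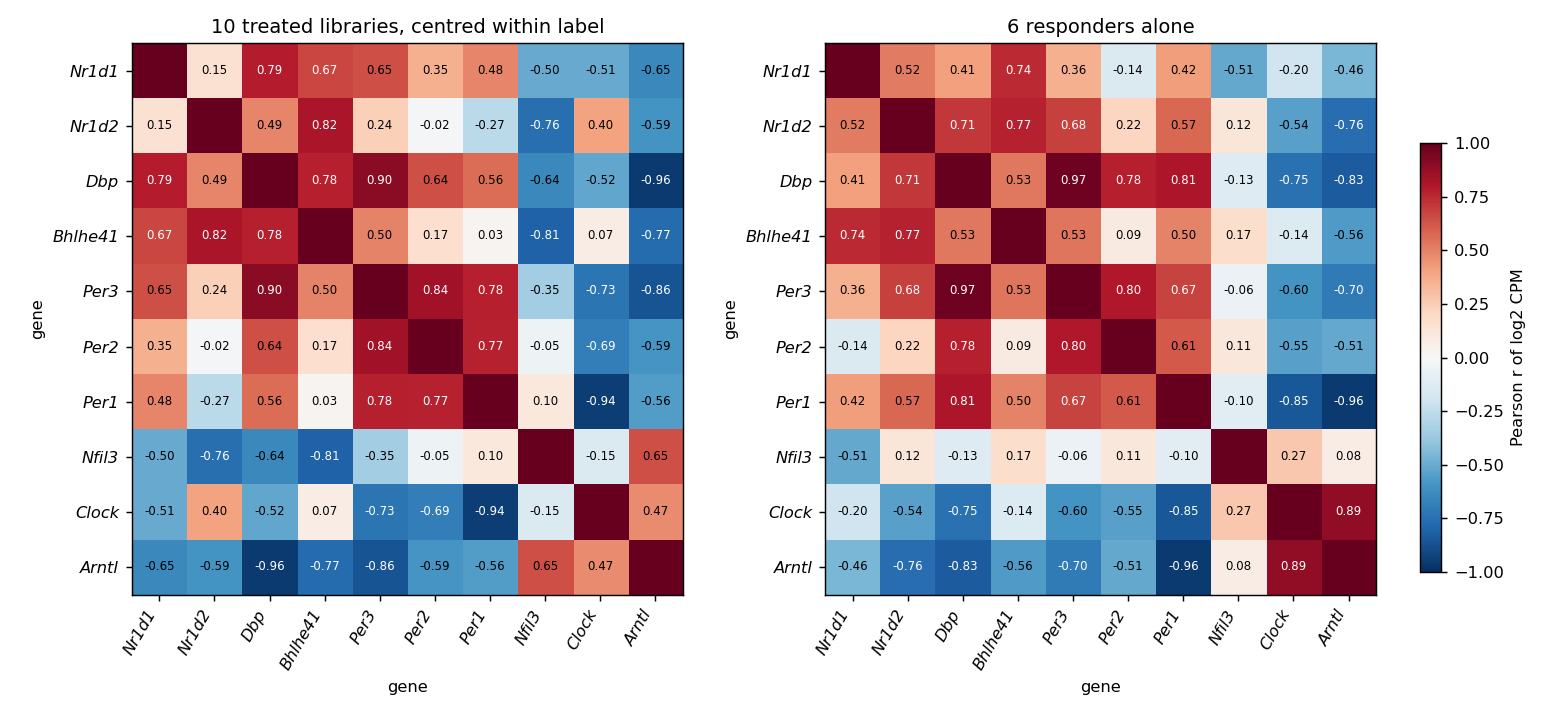
Pearson r of log2 CPM (colour and number in each cell) between members (rows and columns; the first arm from Nr1d1 to Per1, then the second, Nfil3, Clock and Arntl) over the 10 treated libraries after removing each label's mean (left) and over the 6 responders alone (right). Most cells within the first arm are positive and most cells across arms negative, with Dbp and Arntl at -0.960 and Dbp and Per3 at 0.903 on the left.

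The single untreated library stood near the high end for most members of the first arm, and also for Nfil3 of the second. Nr1d1 at 174 CPM, Nr1d2 at 168 CPM and Dbp at 181 CPM were above every treated library, which is 3 of 10 members where 9.51% of genes tested were above all treated libraries; 0 members were below them all (7.19% of genes). The highest treated library had 172.1 CPM for Nr1d1, 155.2 for Dbp and, for Nr1d2, 167.2 against 167.7 in the untreated one. The untreated library came second from the top for Per1 (73.9 CPM), Per3 (86.9) and Bhlhe41 (11.4), and for Nfil3 (20.9) of the second arm. Arntl, at 2.30 CPM, was the second lowest of the 11. Clock at 63.9 CPM and Per2 at 64.2 CPM lay inside the treated range. With 1 library in the group there was no test, and with scaling by library size alone Nr1d2 fell inside the treated range.

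Other parts of the clock were read from the same fit, in which 4.11% of all genes were higher, 5.82% lower and 27.3% had an unadjusted p under 0.05. Of 20 further core clock genes (cryptochromes, ROR receptors, kinases, ubiquitin ligases and corepressors), 0 were higher and 1 lower in responders, with a median log2 fold change of 0.05, and 6 had an unadjusted p under 0.05, both shares near those of all genes. The 1 was Fbxl21, a ubiquitin ligase subunit that acts on cryptochromes, at 7.24 ± 2.02 CPM (SD, n = 6) against 12.9 ± 4.26 CPM (SD, n = 4). Its log2 fold change was -0.86 ± 0.25 (SE; edgeR adjusted p = 0.04995), past the threshold in 3 of 10 fits that left out 1 library and lost without responder replicate 1, 2, 3 or 5 or non-responder replicate 1, 2 or 4. Npas2, the partner of BMAL1 that can stand in for CLOCK and a REV-ERB target, was singled out after its values were seen. It had 5.60 CPM in non-responder replicate 2 and 0.06 to 1.23 CPM in the other 10, so the library that was highest for Arntl was highest here too. Its log2 fold change was -2.67 ± 0.82 (SE; edgeR adjusted p = 0.0599), or -1.38 (0.284) without that library.

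Of 20 clock output genes of liver, 0 were higher and 2 lower in responders (median log2 fold change -0.13), where 9.93% of all genes passed in either direction. Cyp2a4, a cytochrome P450 of steroid metabolism known as a DBP target, had 13.03 ± 8.80 CPM in responders and 70.0 ± 14.6 CPM in non-responders. Its log2 fold change was -2.45 ± 0.43 (SE; edgeR adjusted p = 0.0160), lost without non-responder replicate 2 (-2.39, adjusted p = 0.0568) and with the title number as a covariate (-1.54, adjusted p = 0.435); reads of the closely similar Cyp2a5, which did not pass, could be split between them. Cdkn1a, the cell cycle inhibitor p21, had 3.75 ± 3.28 CPM against 22.8 ± 9.35 CPM. It fell in responders by 2.65 on the log2 scale (edgeR adjusted p = 0.0319) and was lost without responder replicate 1, 2, 3 or 5 or non-responder replicate 1 or 2.

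Of 15 genes known to follow body temperature or glucocorticoids, 1 was higher and 3 were lower in responders (median log2 fold change -0.02), beside 4.11% of all genes higher and 5.82% lower. Tat, the glucocorticoid-inducible tyrosine aminotransferase, had 1190 ± 494 CPM against 492 ± 115 CPM (log2 fold change 1.25 ± 0.33, SE; edgeR adjusted p = 0.0367). Tsc22d3, the glucocorticoid-induced leucine zipper, went the other way with 48.3 ± 11.6 CPM against 96.3 ± 47.5 CPM (-1.03, adjusted p = 0.0419), and without non-responder replicate 1 it stood at -0.60 (0.0811). Klf10, a transcription repressor, had 23.1 ± 4.49 CPM against 39.3 ± 8.37 CPM (-0.79, adjusted p = 0.0233). Rbm3, the cold-inducible RNA-binding protein, had 35.5 ± 4.71 CPM against 50.2 ± 4.78 CPM (-0.53, adjusted p = 0.0234). Klf10 and Rbm3 were each lost without responder replicate 1, 2 or 5 or non-responder replicate 2. Tat and Tsc22d3 passed in 3 of 10 fits that left out 1 library; both were lost without responder replicate 1, 2, 3 or 5 or non-responder replicate 1 or 2, Tat also without non-responder replicate 3 and Tsc22d3 without responder replicate 4. With the title number as a covariate none of the 7 genes named as higher or lower in these 3 lists passed (edgeR adjusted p from 0.432 to 0.593), nor did any with non-responder replicates 1 and 2 both left out (0.0710 to 0.334).

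The genes with patterns most like Dbp were sought over all 11 libraries by Pearson r of log2 CPM. The 5 nearest of 11413 genes, members aside, were Pcsk4 (0.978), Tef (0.972), Naa60 (0.965), Thrsp (0.953) and Mrpl49 (0.950). Tef encodes a D-box factor of the same family as DBP, and stood at 77.8 CPM in non-responder replicate 2 against 127 to 267 CPM in the others. The most opposite to Dbp were Mical2 (-0.936), Lrrc41 (-0.932), Plin3 (-0.909), Tspan14 (-0.898) and Sorbs2 (-0.896). For Arntl the nearest were Orai3 (0.934), Lnx2 (0.919), Mical2 (0.897), Abtb2 (0.889) and Leo1 (0.878), and the most opposite were Tef (-0.897), Usp2 (-0.881), Pcsk4 (-0.874), Slc9a3r1 (-0.870) and Sord (-0.844). Mical2, Tef and Pcsk4 stood in the lists of both genes, with opposite signs. The libraries share the label difference and non-responder replicate 2 is far from the rest in both genes, so these values are a description.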

How the data were processed

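RNA from liver (TRIzol extraction and TruSeq libraries, per the labels' protocols) gave 1 table of gene counts and RPKM values for 11 libraries. The authors deposited whole-number counts per gene, their own RPKM and a coding length per gene, per the file headers; the coding length, another value they gave, was not used in any result. FastQC and the mm10 build are named in the submitters' processing notes. For the aligner, the counter, the annotation and the use of strand: not given in the sources used here. Both files held 0 columns of other samples. A table of exon counts served the last-exon shares and the exons free of other genes, with genes placed by GENCODE M21.

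The 6 responder and 4 non-responder libraries were compared on the deposited counts with edgeR 4.0.16 in R 4.3.3 (TMM scaling, filterByExpr, robust quasi-likelihood, Benjamini-Hochberg over all genes tested, threshold 0.05). DESeq2 1.42.0 and limma 3.58.1 served as alternatives, and both scripts for tests were tested on simulated data. Depth per library, given with the report, limits precision for the low genes Arntl and Bhlhe41; intervals cover counting error only. CPM were TMM-scaled over 11 libraries, and log2 CPM used a prior count of 2. The SE of a fold change is its size divided by the square root of F. Likeness used genes with an average log2 CPM of 1 or more. The coverage index compared later with earlier exons in transcripts of 6 or more exons and 500 or more reads on average.

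Members and lists were chosen with earlier results of these data known. Text names all 10 members, of the core clock, clock output and systemically driven lists the genes past the threshold (at most 6; otherwise the 3 with the smallest p, not used where a list had a call), and the 5 genes most like and most opposite to Dbp and to Arntl. Cell type marker genes past the threshold, and Npas2, were named after their values were seen. Promoter sequences come from RefSeq, GRCm38.p6. Replicates were numbered in accession order. Alternatives were RLE, upper quartile and library-size scaling, no filter, DESeq2, limma-voom, a fit that takes in the untreated library, the title number as a covariate, exons free of other genes, and each library left out. Leaving out non-responder replicates 1 and 2 together was added after seeing the data.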

Additional observations from a re-analysis of the deposited data

Results flagged for a closer look

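Per1 in non-responder replicate 1, at 116 CPM, stood apart from the other 3 non-responders at 18.3, 32.4 and 16.1 CPM by Dixon's gap test at the 95% level. Chance flags about 1 in 20 groups. All 10 members were searched in both labels, and this was the only flag, a number near that rate. The same library had its reads toward 3′ ends, with 22.9% of Per1 exon reads in the last exon against 10.7% to 18.2% in the other 10, and was the extreme treated library for 56.2% of genes. The part of that coverage in the Per1 level was not tested.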

How the results depend on the processing

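Over 20 alternatives each, Dbp, Per1 and Clock kept their direction and stayed short of the threshold, and Nr1d1 kept its direction in all and its call in 19. Nfil3 kept its direction in all and its call in 13, and Bhlhe41 its direction in all and passed in 4. Per2 turned to 0.29 (log2 fold change) with the title number as a covariate and ranged from -0.62 to 0.0335 with each library left out, turning without non-responder replicate 1. Per3 ranged from -0.16 to 0.39 in the same way, below 0 without responder replicate 5 or 6 or non-responder replicate 2 or 4. Arntl ranged from -1.27 to 0.20, turning without non-responder replicate 2, and came to 0.15 with non-responder replicates 1 and 2 both left out, which turned Nr1d2 to -0.21. The 1748 genes past the threshold became 3057 by DESeq2, 1 with the title number, 98 with both libraries left out, and 79 to 1994 with each library left out in turn. The 3 pairs of members became 7 without centring on labels and 0 in responders alone, where 1 pair by itself could not pass. They became 0 with both libraries left out, and 0 to 4 with each library left out. Causes were not tested, though these fits hold fewer libraries. The core clock genes past the threshold ranged from 0 to 4. The median within-label SD of the members ranged from 0.524 to 0.693. No paired analysis was possible because the title numbers are not shared between labels and the other replicate numbers only follow accession order. Depth limits Bhlhe41, with 18 reads in non-responder replicate 2, and Arntl, with 45 in replicate 3.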
